A study of Homo sapiens with 16 samples.

Results

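The interaction of nutlin and GSK2830371 in K1 cells is the difference between the effect of GSK2830371 in the presence of nutlin and its effect without nutlin, on the log2 scale. It was taken from all 8 K1 libraries among the 16 of the series, which also holds 8 libraries of TPC1. Of the 25369 genes in the count table, 15900 passed a low filter in K1 and were tested, and 10859 reached a group mean of 5 CPM, read counts scaled to a common library size, in at least 1 of the 4 K1 groups. Those 10859 genes are the main set described. Counts and medians of the lists of genes by function, and the promoter searches, cover all genes tested. Some list members therefore lie below 5 CPM, and 264 of the 407 zinc finger genes reached it. Nearest to this limit were CHRD (5.001 CPM, interaction −0.84) and LOC257396 (5.002 CPM, 0.33) above it, and SPANXN1 (4.997 CPM, 0.35) and IL27RA (4.992 CPM, 0.03) below it. Most of the 10859 genes were well expressed in all groups: 10257 were at 5 CPM or more in every group and 186 in 1 group only.

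K1 is a single established papillary thyroid carcinoma line, which the labels also give as GLAG-66, and the study describes its p53 as wild type. The 4 K1 groups of 2 libraries each were kept for 24 h with 0.2% DMSO as vehicle, with nutlin at 10 µM, with GSK2830371 at 25 µM or with the combination, and the labels name no other difference between them. The labels do not say whether replicates came from separate cultures. The study's reporting summary states for all its experiments that replicates were made independently, and p values measure the spread between these libraries of 1 line. The comparison asks whether blocking both repressors of p53 does more, or something else, than the single drugs added together.

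Nutlin occupies the pocket of MDM2 that binds p53, and so frees p53 from its ubiquitin ligase. GSK2830371 is an allosteric inhibitor of PPM1D, a phosphatase that acts on p53 and on kinases upstream of it. ATF4, the transcription factor translated when eIF2alpha is phosphorylated, drives genes of amino acid import and synthesis in the integrated stress response (ISR), whereas p53 lowers cell cycle genes through p21, the product of CDKN1A, and the DREAM repressor complex.

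Total counts ran from 28888686 to 37161241 per K1 library, and replicates of a group varied 5.18 to 8.16 times as much as counting alone would give, on the variance scale. All 8 libraries held the thyroid factors PAX8 (750 to 847 CPM) and FOXE1 (28.9 to 38.5 CPM), whereas TSHR and CD3E were at 0 and CDH1, PTPRC, PECAM1 and COL3A1 stayed under 0.07 CPM. KRT8 (613 to 848 CPM) and VIM (5150 to 7060 CPM) were both abundant. Changes are given on the log2 scale with their standard error after ±. A gene is called where its Benjamini-Hochberg adjusted p from the edgeR quasi-likelihood test is under 0.05 and its change exceeds 1.5-fold, and rose, fell, raised and lowered are used of called changes.

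An interaction was called for 367 of the 10859 genes, 269 positive (2.48%) and 98 negative (0.902%), and the positive calls were for the most part genes of low GC content. Over all 15900 genes tested the calls were 284 positive (1.79%) and 104 negative (0.654%), and the other 15 positive and 6 negative calls lay below 5 CPM. Both GSK2830371 libraries had less of the transcripts poor in GC than the DMSO libraries. Genes were divided by GC content into 10 equal groups. In the group with the lowest GC content, the median log2 difference from the DMSO mean was −0.41 in GSK2830371 replicate 1 and −0.24 in replicate 2. The corresponding values were −0.06 and 0.01 in the combination libraries, and −0.04 and −0.13 in the nutlin libraries. In the group with the highest GC content the GSK2830371 libraries were at 0.16 and 0.11, while the other 6 lay between −0.04 and 0.02. The trend is therefore carried by the GSK2830371 libraries, weakly by nutlin replicate 2, and not by the libraries that received both drugs.

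**Figure D1:**
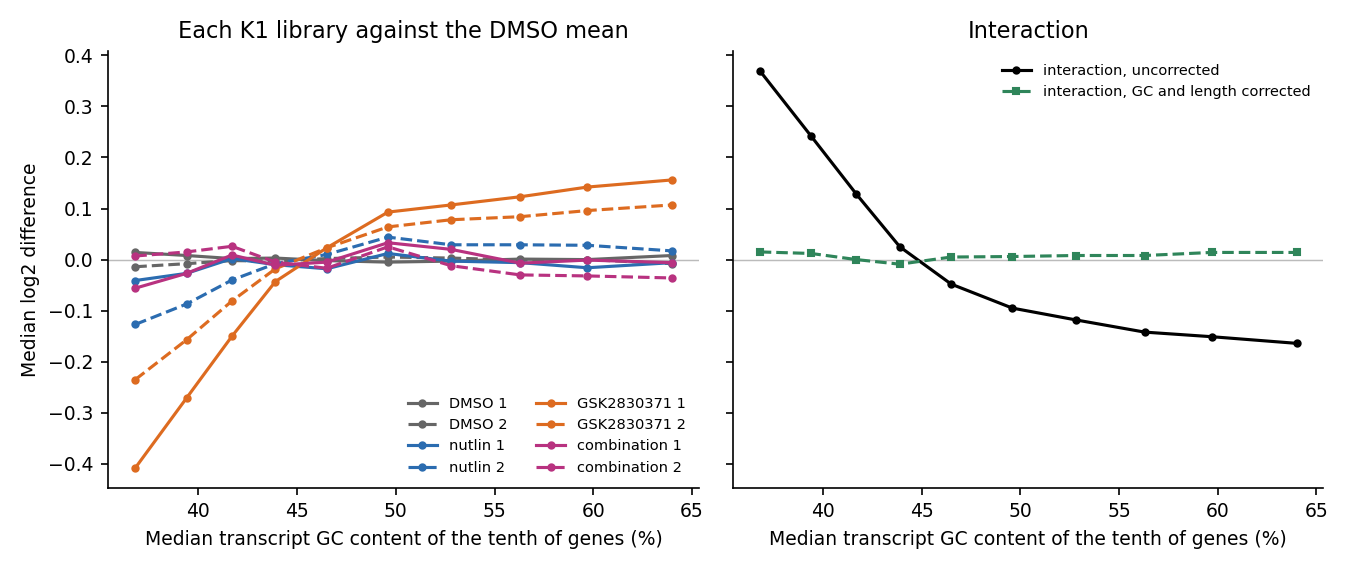
Median log2 difference (y axis) over 10 equal groups of genes ordered by transcript GC content (x axis, percent), for the 12278 genes whose mean reached 1 CPM. Left, each K1 library against the mean of the DMSO libraries, solid lines for replicate 1 and dashed for replicate 2. Right, the interaction before and after correction for GC content and transcript length. The GSK2830371 libraries fall to −0.41 and −0.24 in the lowest group, and the interaction there is 0.37 before and 0.015 after correction.

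Because the interaction subtracts the GSK2830371 libraries, it took up this trend with the opposite sign. Across 12278 genes, the rank correlation of the interaction with GC content was −0.61, and it was 0.01 after a correction that removes the trend with GC content and length from each library. These correlations are across genes, which share libraries and base composition and are not independent. Among these genes, the lowest group of GC content held 164 positive calls and the next group 73. After correction those groups held 2 and 3. The corrected fit called 29 positive (0.267%) and 31 negative genes (0.285%) at 5 CPM or more, beside 0.189% and 0.201% of all genes tested. Genes called in both fits numbered 51, of which 24 were positive and 27 negative. By its construction the correction also removes any response of the cells that follows GC content, and whether the trend arose in the cells or in the libraries cannot be told apart here.

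The 245 positive genes that were called only before correction had a median GC content of 37.4%. Their median change by GSK2830371 was −0.49 without nutlin and 0.19 with nutlin. The 24 positive genes called in both fits had a median GC content of 43.6%, and for them GSK2830371 changed little without nutlin (median −0.08) and raised expression with nutlin (median 0.81). Against DMSO, the medians of these 24 genes were −0.48 with nutlin alone and 0.54 with the combination. Genes of zinc finger proteins (ZNF), which are poor in GC, show the difference: 11 of 407 tested were called positive before correction and 0 after it. ZNF845 was at 8.70 and 7.41 CPM in DMSO, 8.01 and 7.30 with nutlin, 4.90 and 5.32 with GSK2830371, and 7.59 and 8.85 with both. Only the GSK2830371 libraries stood apart for this gene. Its interaction was 0.76 ± 0.179 before correction and 0.56 ± 0.164 after it (edgeR, Benjamini-Hochberg adjusted p of 0.023 and 0.11). ZNF83 (0.77) and ZNF674 (0.87) were likewise called before correction only.

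Each called gene was also placed by where the combination ended relative to the sum of the single drug effects. It could go further than the sum in the same direction, end on the other side of DMSO from the sum, or fall short of the sum. Among the 51 genes called in both fits these kinds divided by sign. Of the 27 negative genes, 19 went beyond the sum and 7 ended on the other side of DMSO. In those beyond the sum a decrease by the single drugs became deeper, except for WISP1, whose sum was −0.03. Of the 24 positive genes, 19 ended on the other side of DMSO, where the single drug effects added up to a value below 0 and the combination lay above DMSO, and 3 (ABCA13, ADM2 and DDIT4) went beyond the sum. The cases short of the sum were ALMS1 and DCLRE1A, which were lower with each drug, and BTG2, which rose with each drug. These kinds rest on point estimates and were not tested. Of the 245 positive genes called only before correction, 141 ended on the other side of DMSO and 93 fell short of the sum.

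**Figure D2:**
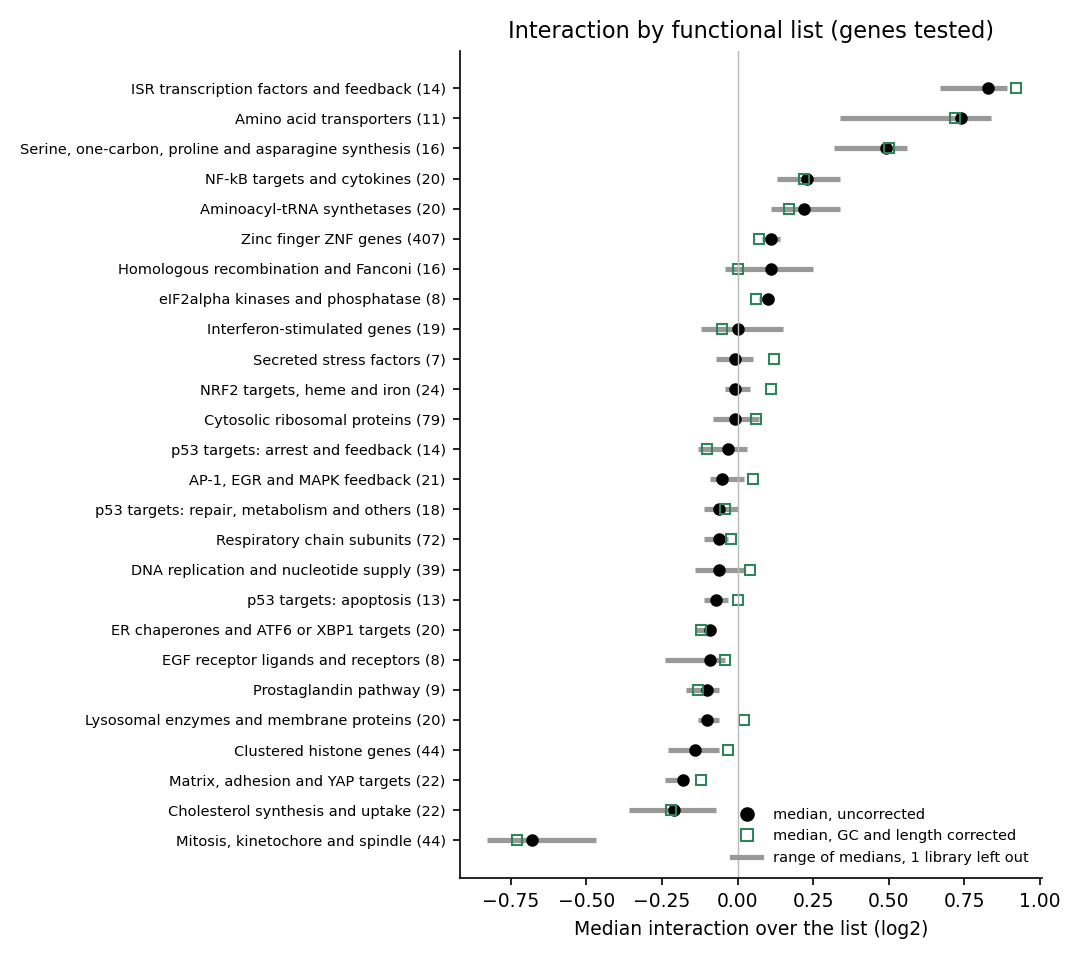
Median interaction (x axis, log2) over the tested genes of each functional list, with the number of genes in parentheses. Filled circles are the uncorrected fit, open squares the fit corrected for GC content and length, and grey bars the range of the medians when each of the 8 libraries is left out. The ISR factors lie highest (0.83) and the mitosis genes lowest (−0.68), while the median over all genes is −0.03.

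Genes of the ISR were higher in the combination than the single drugs gave together. Of 14 transcription factors and feedback genes of this pathway, 7 were called positive before correction and 7 after it, none negative, and their median interaction was 0.83 (0.92 corrected), beside −0.03 (0.01 corrected) over all genes. The list was written with earlier results on ATF4 in these libraries known, so it is not independent evidence of its direction. GSK2830371 alone raised 0 of the 14 genes (0.736% of all genes tested were raised), and in the presence of nutlin it raised 11 (1.16% of all genes). Nutlin alone raised 1 and lowered 2 (3.84% and 5.43% of all genes). The combination raised 9 and lowered 0 against DMSO (7.62% and 8.09% of all genes), and nutlin in the presence of GSK2830371 raised 8 and lowered 0 (6.3% and 6.75% of all genes). These comparisons share libraries with the interaction and are given side by side only.

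CHAC1, a glutathione-degrading enzyme and a direct ATF4 target, had the largest interaction. It was at 14.1 and 11.8 CPM in DMSO, 7.04 and 5.06 with nutlin, 12.98 and 16.9 with GSK2830371, and 64.7 and 74.9 with both drugs. The combination libraries lay far above all others, and nutlin alone had lowered the gene. GSK2830371 changed it by 0.21 without nutlin and by 3.54 with nutlin. The interaction was 3.33 ± 0.209 (edgeR, Benjamini-Hochberg adjusted p = 8.5e-06) and 3.51 ± 0.237 after correction.

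The transcription factor ATF4 itself was at 415 and 379 CPM in DMSO, 333 and 344 with nutlin, 433 and 466 with GSK2830371, and 749 and 782 with both. Its libraries within each group lay close together and the combination stood apart. The interaction of its mRNA was 1.00 ± 0.0839 (edgeR, Benjamini-Hochberg adjusted p = 0.00016). TRIB3, a pseudokinase that feeds back on ATF4, was at 109.7 and 113 CPM in DMSO, 106 and 93.6 with nutlin, 115 and 110.5 with GSK2830371, and 176 and 175 with both. Neither single drug moved it by more than 0.16, and the interaction was 0.79 ± 0.0866. CEBPG, a dimer partner of ATF4, went from 35.4 and 38.3 CPM in DMSO to 27.9 and 26.6 with nutlin and 46.9 and 45.6 with both drugs, while GSK2830371 alone left it at 34.6 and 34.1. Its interaction was 0.87 ± 0.0946. TRIB3 and CEBPG both had an edgeR, Benjamini-Hochberg adjusted p of 0.0012, and no library of another group reached their combination values.

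Other members followed with interactions near 1. DDIT3, which encodes the stress factor CHOP, held 11.5 to 14.1 CPM in the 6 libraries without the combination and 25.0 and 24.2 with both drugs, and its interaction was 0.90 ± 0.125. JDP2, a bZIP repressor, was lowered by nutlin from 16.1 and 18.5 to 10.5 and 8.82 CPM and stood at 17.7 and 22.7 with both, and its interaction was 1.07 ± 0.173. DDIT4, which encodes the mTORC1 inhibitor REDD1, went from 42.8 and 31.0 CPM to 126 and 144 with both drugs and had an interaction of 1.07 ± 0.186. Their adjusted p were 0.005, 0.0075 and 0.0089 (edgeR, Benjamini-Hochberg). DDIT3 and DDIT4 were thus highest in the combination, whereas JDP2 lay near its DMSO level there. The members without a call were ATF3 (interaction 1.18, at most 4.27 CPM), NUPR1 (0.77), VLDLR (0.51), SESN2 (0.24), PPP1R15A (0.12), CEBPB (0.02) and ATF5 (−0.16). GDF15, a secreted stress factor, had 0.46 and 0.24 CPM in DMSO and 5.24 and 5.83 with both drugs, but its interaction of 1.32 ± 0.498 was not called (edgeR, Benjamini-Hochberg adjusted p = 0.13).

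No call was made among the kinases of eIF2alpha. EIF2AK1, which encodes the heme-regulated kinase HRI, had 96.9 to 121 CPM over all 8 libraries and an interaction of −0.02 ± 0.0791 (edgeR, Benjamini-Hochberg adjusted p = 0.92). EIF2AK4, which encodes the amino acid sensor GCN2, had 0.09 ± 0.0708. Of 8 genes for kinases, eIF2 factors and the phosphatase subunit, 0 were called in either direction, with a median of 0.10. HMOX1, the heme oxygenase that releases iron from heme, had an interaction of 0.09 ± 0.242, and its replicates in DMSO were at 411 and 605 CPM. GSK2830371 changed HMOX1 by 0.58 without nutlin and 0.67 with it, and the combination raised it by 0.67 against DMSO. The increases of HMOX1 and HRI that the study reports for the combination were in protein, which these counts do not measure. For HRI mRNA the study reports a decrease, measured by Q-RT-PCR in TPC1. In K1, EIF2AK1 was 0.25 ± 0.0558 above DMSO in the combination, which is under 1.5-fold. Of 20 ER chaperones and ATF6 or XBP1 targets, 0 were called, and their median was −0.09. CALR, an ER chaperone and the most abundant of them, had −0.40 ± 0.0764, below the limit of 1.5-fold.

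**Figure D3:**
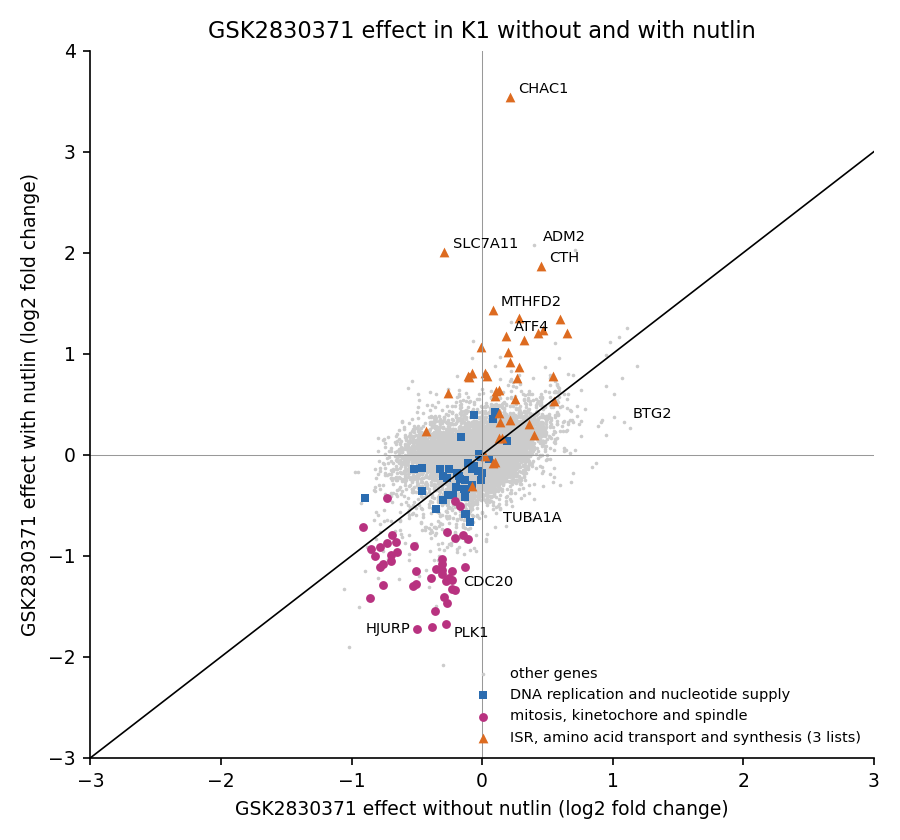
Effect of GSK2830371 (log2 fold change) without nutlin (x axis) and with nutlin (y axis) for the 10859 genes at 5 CPM or more, each point a gene. Points on the diagonal have no interaction. Most ISR, amino acid transport and synthesis genes lie above the diagonal, led by CHAC1 (0.21 and 3.54), most mitosis genes lie below it, and DNA replication genes lie on both sides of it.

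Amino acid supply moved in the same direction as the ISR factors but less evenly. Of 11 amino acid transporters 4 were called positive (SLC7A11, SLC38A1, SLC38A2 and SLC1A4) and 0 negative, with a median of 0.74 (0.72 corrected), and 3 were called after correction. Of 16 enzymes of serine, one-carbon, proline and asparagine synthesis 3 were positive (CTH, MTHFD2 and BCAT1) and 0 negative, with a median of 0.49, and 4 were called after correction. Over all genes tested, 1.79% were called positive before correction and 0.189% after it. SLC7A11, the cystine importer, was at 36.5 and 46.1 CPM in DMSO, 35.1 and 16.8 with nutlin, 34.8 and 33.0 with GSK2830371, and 95.3 and 113 with both. The nutlin replicates differed by more than 2-fold, and the combination exceeded every other library. Its interaction was 2.30 ± 0.308 (edgeR, Benjamini-Hochberg adjusted p = 0.0036) and 1.87 ± 0.292 after correction.

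MTHFD2, a mitochondrial folate enzyme, was at 104 and 128 CPM in DMSO, 79.2 and 53.3 with nutlin, 129.8 and 114 with GSK2830371, and 178 and 178 with both, for an interaction of 1.35 ± 0.193. CTH, which makes cysteine from cystathionine, was at 4.28 and 5.10 CPM in DMSO, 3.99 and 2.64 with nutlin, 6.36 and 6.49 with GSK2830371, and 11.5 and 12.5 with both, for an interaction of 1.41 ± 0.225. In both genes the nutlin libraries were the lowest and the combination libraries the highest. SLC1A4, a neutral amino acid transporter, was also lowest with nutlin, with 25.9 and 19.3 CPM under nutlin against 51.6 and 47.8 with both (interaction 0.83 ± 0.159). SLC38A1 (0.90) and SLC38A2 (0.86), which import glutamine, and BCAT1 (0.67), a branched-chain transaminase, were called before correction only. SLC3A2 (0.73 corrected), the heavy chain that pairs with SLC7A11, and the enzyme genes GPT2 (0.63) and PSPH (0.61) were called after it only. ASNS (0.59), PSAT1 (0.82) and SLC7A5 (0.78) were not called in either fit. Of 20 aminoacyl-tRNA synthetases, EPRS was called before correction only (interaction 0.69 ± 0.120) and CARS after it only (0.59, beside 0.44 before), and their median was 0.22. Of 7 secreted stress factors 2 were positive (1.79% of all genes tested), ADM2 and STC2, and the median was −0.01. STC2, a stanniocalcin, was at 20.4 and 30.1 CPM in DMSO, 21.97 and 12.5 with nutlin, 34.1 and 24.9 with GSK2830371, and 42.3 and 42.6 with both. Its interaction was 1.09 ± 0.301, and it was not called after correction. ADM2, a peptide hormone of the calcitonin family, had 12.4 and 13.8 CPM in DMSO, 13.1 and 7.95 with nutlin, 19.2 and 15.4 with GSK2830371, and 42.3 and 46.5 with both, and an interaction of 1.69 ± 0.231 (edgeR, Benjamini-Hochberg adjusted p = 0.0041). Only its combination libraries stood clearly apart.

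These genes lay lowest in nutlin replicate 2. In it the amino acid transporters had a median log2 difference of −0.75 from DMSO, beside −0.23 in replicate 1, and the synthesis enzymes −0.52 beside −0.16. Without that library the median interaction of the transporters was 0.34 and 1 of them was called, whereas the ISR factors kept a median of 0.76 and 4 calls. The ISR factors as a list did not show this split, with medians of −0.07 and 0.04 in the nutlin libraries and 0.80 and 0.79 in the combination libraries. CTH, JDP2, DDIT4, DDIT3 and SLC1A4 were not called without nutlin replicate 2, with adjusted p from 0.051 to 0.077 (edgeR, Benjamini-Hochberg).

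The bases TGATGNAA, the core of the element bound by ATF4 with C/EBP factors, were searched on both strands in the 250 bases before the RefSeq start of each gene. Promoters were found for 11161 of the genes tested, of which 181 (1.62%) held these letters. Among the positive genes called in both fits, 2 of 22 with a promoter held them, CHAC1 and ABCA13. The stretch of the CHAC1 promoter with the match (chr15:40953241-40953360, plus strand, GRCh38.p14, from base −230 to −111 relative to the start) is shown because this gene had the largest interaction, with the match, here on the opposite strand, in capitals.
CHAC1: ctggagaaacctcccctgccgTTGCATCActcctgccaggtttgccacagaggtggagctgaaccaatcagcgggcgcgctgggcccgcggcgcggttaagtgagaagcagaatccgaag

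Mitotic genes made up the other side. Of 44 genes for mitosis, kinetochore and spindle, 25 were called negative before correction and 13 after it, 0 were positive, and 42 of 44 had an interaction below 0. Over all genes tested, 0.654% were called negative before correction and 0.201% after it. The median interaction of the mitosis genes was −0.68 (−0.73 corrected). Nutlin alone lowered 44 of the 44 (5.43% of all genes tested), with a median of −1.13. GSK2830371 alone lowered 15 (1.5% of all genes), with a median of −0.37. In the presence of nutlin GSK2830371 lowered 41 of them (1.52% of all genes), with a median of −1.11. The combination against DMSO reached a median of −2.19.

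PLK1, a kinase of mitotic entry and spindle assembly, was at 215 and 181 CPM in DMSO, 79.0 and 118 with nutlin, 146 and 180.1 with GSK2830371, and 27.7 and 34.0 with both. The combination lay below all other libraries and below the product of the single drug effects. Its interaction was −1.40 ± 0.223 (edgeR, Benjamini-Hochberg adjusted p = 0.0072) and −1.23 ± 0.235 after correction. HJURP, the chaperone that loads CENP-A at centromeres, was at 103 and 95.4 CPM in DMSO, 32.2 and 42.1 with nutlin, 69.1 and 83.3 with GSK2830371, and 11 and 11.97 with both. Its interaction was −1.32 ± 0.165. CDC20, an activator of the anaphase-promoting complex, was at 238 and 220.5 CPM in DMSO, 95.4 and 125 with nutlin, 189.7 and 208 with GSK2830371, and 41.6 and 45.5 with both, for an interaction of −1.14 ± 0.141. HJURP and CDC20 had an edgeR, Benjamini-Hochberg adjusted p of 0.0022, and both stayed called when any 1 library was left out.

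CCNA2, which encodes cyclin A2, went from 69.2 and 63.6 CPM in DMSO to 8.27 and 10.5 with both drugs, with an interaction of −1.19 ± 0.214. KIF20A, a kinesin of cytokinesis, went from 90.1 and 76.7 to 13.9 and 14.7 CPM, with −1.23 ± 0.202. AURKB, the kinase of the chromosomal passenger complex, went from 64.4 and 59.6 to 11.4 and 12.5 CPM, with −0.98 ± 0.141. All 3 were lowered by nutlin alone to levels between those of DMSO and the combination. KIFC1, a minus-end kinesin, had −1.12 ± 0.184 and was called in both fits. The centromeric histone CENPA (−1.20), CDCA8 (−1.10) and the microtubule regulator PSRC1 (−1.15) were called before correction only. PIF1, a DNA helicase, had the largest negative value (−1.78 ± 0.391), at 1.05 and 1.03 CPM in the combination, and was not called after correction (edgeR, Benjamini-Hochberg adjusted p = 0.08).

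Genes that serve S phase fell with nutlin as well, but no interaction was called among them. Of 39 genes for DNA replication and nucleotide supply, nutlin lowered 37 (5.43% of all genes tested). Their median change by nutlin was −1.81, which exceeds the median decrease of the mitosis genes. The median interaction of the replication genes was −0.06 (0.04 corrected), and 0 of 39 were called in either direction. GSK2830371 lowered 1 of them without nutlin (1.5% of all genes) and 3 with it (1.52%). MCM4, a subunit of the replicative helicase, was at 313 and 325 CPM in DMSO, 71.2 and 80.0 with nutlin, 292 and 291 with GSK2830371, and 57.7 and 55.4 with both, and its interaction was −0.29 ± 0.0853 (edgeR, Benjamini-Hochberg adjusted p = 0.055). Of 16 genes for homologous recombination and the Fanconi pathway, 1 was called positive (FANCB) and 1 negative (PIF1) before correction and 0 after it. The difference between the mitosis and replication lists was not tested.

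**Figure D4:**
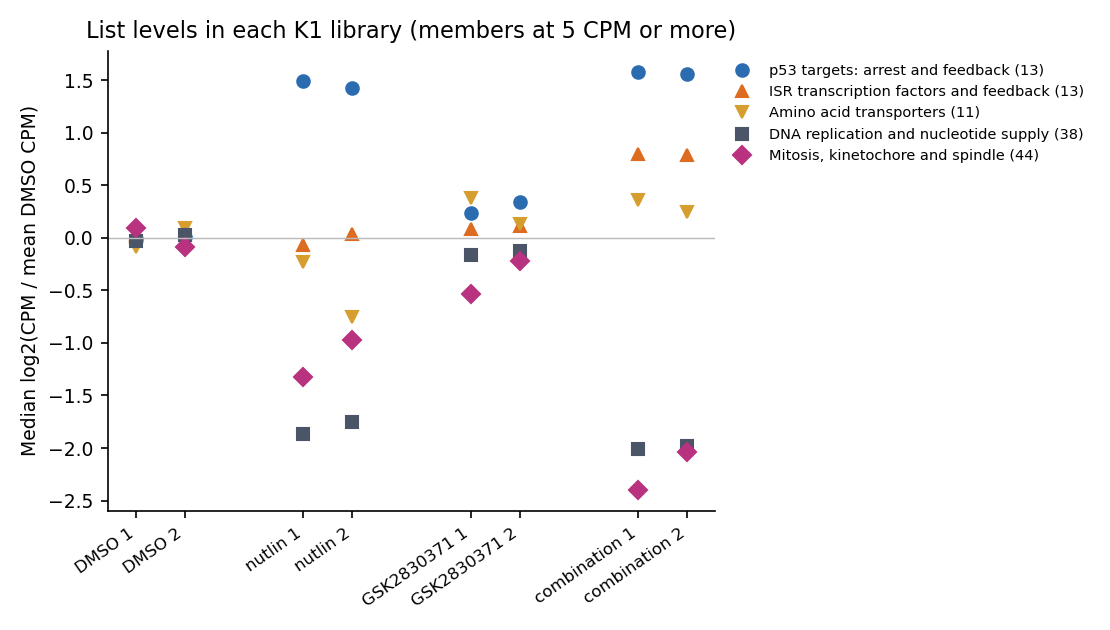
Median log2 ratio of CPM to the mean DMSO CPM (y axis) over the members of 5 lists at 5 CPM or more, in each of the 8 K1 libraries (x axis), with the number of members in parentheses. Mitosis genes fall from −1.32 and −0.97 with nutlin to −2.40 and −2.04 with both drugs, while replication genes stay between −2.01 and −1.75 in these 4 libraries.

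The promoters of both lists were searched for letters tied to cell cycle repression. TTTGAA, the canonical form of the cell cycle genes homology region bound by the MuvB core of DREAM, and CCAAT, the letters recognised by NF-Y, were searched on both strands in the same 250 bases. TTTGAA was present in 8.78% of the 11161 promoters and CCAAT in 34.9%, and both together in 3.51%. Of 38 mitosis genes with a promoter, 22 held TTTGAA, 30 held CCAAT and 20 held both. Of 34 replication genes with a promoter, 1 held TTTGAA (RRM1) and 19 held CCAAT. Among the negative genes called in both fits, 8 of 19 held TTTGAA and 16 of 19 held CCAAT. A match of letters is a description and does not show binding. No other letters tied to cell cycle repression were searched, so a lack of TTTGAA does not show a lack of such repression. The 120 bases before the start are shown for 4 negative genes that hold both, with the matches in capitals, from 5′ to 3′ on the strand of the gene (RefSeq, GRCh38.p14). PLK1 lies at chr16:23678769-23678888 and CDC20 at chr1:43358861-43358980, both on the plus strand. HJURP lies at chr2:233854536-233854655 on the minus strand and KIF23, which encodes a kinesin of the central spindle, at chr15:69414229-69414348 on the plus strand.
PLK1: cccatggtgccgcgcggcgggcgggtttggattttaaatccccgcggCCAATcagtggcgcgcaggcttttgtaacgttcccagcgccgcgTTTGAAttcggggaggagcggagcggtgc
CDC20: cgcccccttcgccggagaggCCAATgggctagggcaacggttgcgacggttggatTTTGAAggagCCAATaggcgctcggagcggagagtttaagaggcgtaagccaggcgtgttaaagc
HJURP: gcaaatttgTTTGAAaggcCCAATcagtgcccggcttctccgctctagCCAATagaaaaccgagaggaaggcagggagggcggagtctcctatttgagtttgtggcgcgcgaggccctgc
KIF23: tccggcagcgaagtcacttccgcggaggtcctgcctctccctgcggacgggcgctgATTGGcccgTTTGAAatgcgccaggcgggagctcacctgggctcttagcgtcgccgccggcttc

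The mitotic values also depended on the nutlin replicates. All 44 mitosis genes were higher in nutlin replicate 2 than in replicate 1, by a median of 0.38, and the list was at 0.09 and −0.09 in the DMSO libraries and at −0.53 and −0.22 in the GSK2830371 libraries. Replicates of 1 group thus differed in their mitotic level. Without nutlin replicate 2, the median interaction of the list was −0.47 and 2 of the 44 genes were called. Without combination replicate 2 it was −0.81 with 12 calls, and over all 8 such fits the median stayed between −0.83 and −0.47. PLK1, CCNA2 and KIF20A had adjusted p of 0.058, 0.074 and 0.065 without nutlin replicate 2 (edgeR, Benjamini-Hochberg), with interactions of −1.08, −0.91 and −0.97.

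**Figure D5:**
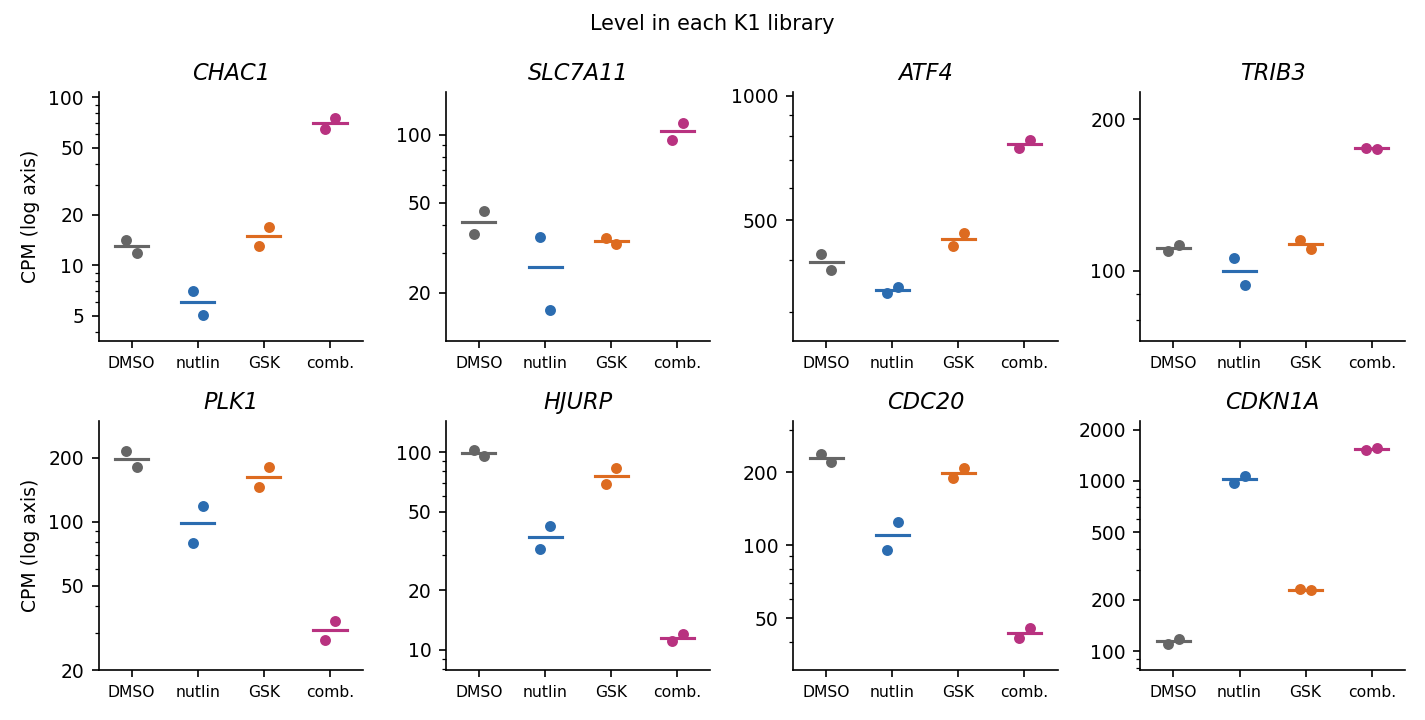
CPM (y axis, log axis) of 8 genes in each K1 library, with points for the 2 replicates and a bar for their mean, for DMSO, nutlin, GSK2830371 (GSK) and the combination (comb.). CHAC1, SLC7A11, ATF4 and TRIB3 are highest in the combination, PLK1, HJURP and CDC20 lowest, and CDKN1A rises with each drug to 1529 and 1570 CPM with both.

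Among targets of p53, 1 of 14 for arrest and feedback, 1 of 13 for apoptosis and 0 of 18 others were called, beside 1.79% positive and 0.654% negative calls over all genes tested. Nutlin alone raised 12 of 14 targets for arrest and feedback (3.84% of all genes), with a median of 1.39. GSK2830371 raised 2 of these targets with nutlin (1.16% of all genes) and 2 without (0.736%). Their median interaction was −0.03, with 0 positive and 1 negative call. The median was −0.07 for 13 apoptosis targets and −0.06 for 18 other targets. CDKN1A was at 110.5 and 118 CPM in DMSO, 979 and 1066 with nutlin, 232 and 229 with GSK2830371, and 1529 and 1570 with both. The combination was the highest group, yet the rise by GSK2830371 was 1.01 without nutlin and 0.60 with it, for an interaction of −0.41 ± 0.0802. This is under 1.5-fold, and its adjusted p was 0.012 before correction and 0.096 after it (edgeR, Benjamini-Hochberg).

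MDM2, the target of nutlin and itself induced by p53, had an interaction of 0.27 ± 0.0898 before correction and 0.01 after it. PPM1D, the target of GSK2830371, was at 21.0 and 22.6 CPM in DMSO, 50.8 and 58.2 with nutlin, 18.3 and 18.6 with GSK2830371, and 40.4 and 46.4 with both (interaction −0.09 ± 0.124). Both drugs act on the protein and not on the mRNA of their target, so these levels do not measure the block itself. MDM2 was at 155 and 157 CPM in DMSO, 190 and 210 with GSK2830371, 1262 and 1313 with nutlin, and 1889 and 2102 with both. Both genes, which p53 induces, were higher in every library labelled with nutlin than in any without it. They do not check the GSK2830371 labels. BBC3, which encodes the apoptosis activator PUMA, had −0.34 ± 0.130. None of these 3 genes was called in either fit.

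The exceptions went in opposite directions. BTG2, an antiproliferative p53 target, was at 7.47 and 8.57 CPM in DMSO, 123 and 133 with nutlin, 17.7 and 16.6 with GSK2830371, and 151 and 169 with both. GSK2830371 raised it by 1.09 without nutlin, and with nutlin its effect was 0.32, for an interaction of −0.77 ± 0.118 (edgeR, Benjamini-Hochberg adjusted p = 0.0059). PMAIP1, which encodes the apoptosis activator NOXA and is also a target of ATF4, was at 21.3 and 19.6 CPM in DMSO, 23.1 and 20.9 with nutlin, 16.5 and 19.4 with GSK2830371, and 36.2 and 39.4 with both. It rose only in the combination, and its interaction was 0.97 ± 0.130 (edgeR, Benjamini-Hochberg adjusted p = 0.0036). Without nutlin replicate 2 neither was called, with an edgeR, Benjamini-Hochberg adjusted p of 0.058 for BTG2 and 0.051 for PMAIP1. Among the targets with other roles, RPS27L was the most abundant and had an interaction of −0.10 ± 0.0721.

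Cytokine genes were the next group above 0. Of 20 NF-kB targets and cytokines 3 were called positive before correction (1.79% of all genes tested) and 1 after it (0.189%). Of the 20, 17 were above 0, and their median was 0.23 (0.22 corrected). IL1A, which encodes interleukin-1 alpha, was at 24.6 and 27.4 CPM in DMSO, 33.3 and 29.6 with nutlin, 17.0 and 20.2 with GSK2830371, and 47.9 and 47.1 with both. The single drugs lay on opposite sides of DMSO, and the combination libraries were the highest. The effect of GSK2830371 was −0.49 without nutlin and 0.60 with it, for an interaction of 1.09 ± 0.128 (edgeR, Benjamini-Hochberg adjusted p = 0.0019). CXCL8, a neutrophil chemokine poor in GC (32.9%), had 0.74 ± 0.123 before correction and 0.31 after it, and BIRC3, which stayed under 2.1 CPM, had 1.40 before and 1.00 after it. Neither was called after correction.

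Of the 51 genes called in both fits, 21 belonged to none of the lists. LMO4, a LIM-only transcription regulator, was at 39.6 and 36.7 CPM in DMSO, 24.3 and 25.7 with nutlin, 41.1 and 43.2 with GSK2830371, and 47.0 and 51.0 with both, for an interaction of 0.83 ± 0.101. IFRD1, a transcriptional coregulator, was at 38.7 and 39.6 CPM in DMSO, 26.4 and 26.1 with nutlin, 35.7 and 33.5 with GSK2830371, and 39.3 and 39.0 with both, for 0.75 ± 0.091. In both genes nutlin alone gave the lowest values and the libraries with both drugs lay within or above the range of DMSO. NCOA7 (1.2 ± 0.184) and the netrin receptor gene UNC5B (0.61 ± 0.1) had the same order. ABCA13, a lipid transporter, had 1.27 ± 0.252, and STON2, an endocytic adaptor with 1.23 ± 0.252, was called before correction only.

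CSF2 and LCOR showed another order, with the lowest values under GSK2830371 alone. CSF2, the growth factor of granulocytes and macrophages, was at 7.47 and 7.79 CPM in DMSO, 8.73 and 8.14 with nutlin, 5.00 and 4.19 with GSK2830371, and 8.74 and 7.77 with both, for 0.70 ± 0.170. GSK2830371 lowered it without nutlin, and with nutlin no decrease was measured (−0.03). LCOR, a nuclear receptor corepressor, had 0.79 ± 0.164. EGR1, an immediate early factor and the 1 called member of 21 AP-1, EGR and MAPK feedback genes, was at 8.24 and 11.3 CPM in DMSO, 7.21 and 6.15 with nutlin, 8.72 and 6.12 with GSK2830371, and 10.75 and 9.76 with both. Its groups overlapped, and its interaction was 1.02 ± 0.243.

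Among negative genes outside the mitosis list, HAS2, a hyaluronan synthase and the 1 called member of 22 matrix, adhesion and YAP target genes, was at 16.03 and 17.9 CPM in DMSO, 15.98 and 14.3 with nutlin, 7.83 and 8.85 with GSK2830371, and 4.27 and 3.84 with both. Nutlin alone changed it by −0.17, which was not called, while the decrease by GSK2830371 was −1.02 without nutlin and −1.90 with it. Its interaction was −0.87 ± 0.160 (−1.19 corrected). WISP1, a matrix-associated signalling protein, had 7.90 and 6.71 CPM in DMSO and 6.68 to 7.67 with either drug, against 3.66 and 4.26 with both (interaction −0.85 ± 0.179). It fell in the combination alone.

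Other negative genes were highest under a single drug. GPRC5A, an orphan receptor, was at 22.9 and 18.7 CPM in DMSO, 18.5 and 20.8 with nutlin, 28.2 and 34.8 with GSK2830371, and 15.2 and 16.7 with both, for −0.90 ± 0.164. Its rise with GSK2830371 alone passed the test. SOX17, an endoderm transcription factor, had the same order, at 21.96 and 23.5 CPM with GSK2830371 and 13.4 and 14.1 with both, for −0.81 ± 0.115. TUBA1A, an alpha tubulin, was at 129.5 and 121 CPM in DMSO, 177 and 188 with nutlin, 134 and 134.5 with GSK2830371, and 116 and 107 with both, for an interaction of −0.81 ± 0.0846. The effect of nutlin on it was 0.54 without GSK2830371 and −0.27 with it. Near-identical tubulin genes share its sequence, so its counts are uncertain. FLVCR2 (−1.02), a transporter, HSD3B7 (−0.88), an enzyme of bile acid synthesis, DDIT4L (−0.75), a relative of DDIT4, and MTSS1 (−0.68) were also negative. CDCA3, PRR11 and NEIL3, which are expressed in dividing cells, went beyond the sum as most mitotic genes did, with −1.11, −0.64 and −0.72.

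The remaining lists held few calls. Of 22 cholesterol synthesis and uptake genes 0 were called, 17 were below 0 and their median was −0.21 (−0.22 corrected). Of 9 prostaglandin genes 1 was called, PTGES, which makes prostaglandin E2. It was at 65.4 and 55.2 CPM in DMSO, 67.3 and 95.7 with nutlin, 118 and 147 with GSK2830371, and 88.9 and 108 with both, and its interaction of −0.86 ± 0.206 was not called after correction (−0.70). No member was called in either direction, before or after correction, among 79 cytosolic ribosomal protein genes (RPL41 0.00 ± 0.0798), 72 respiratory chain subunits (ATP5B −0.16 ± 0.0792), 24 NRF2, heme and iron genes (FTH1 −0.06 ± 0.0783), 20 lysosomal genes (CTSB −0.20 ± 0.0927), 19 interferon-stimulated genes, 8 EGF receptor and ligand genes (EGFR −0.03 ± 0.0741) and 44 histone genes (HIST1H2BK −0.49 ± 0.187), nor among 5 thyroid, 6 epithelial, 5 fibroblast and 3 immune and endothelial markers that were tested.

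Leaving out 1 library at a time showed how far the 51 genes rest on single libraries. Without GSK2830371 replicate 1 or nutlin replicate 1 all 51 were still called, without combination replicate 2 31 were, and without nutlin replicate 2 13 were. Such a fit borrows the spread of the other groups for the single library that remains in 1 group. The 13 genes called in every one of these 8 fits were ADM2, ATF4, CEBPG, CHAC1, IFRD1, IL1A, LMO4, MTHFD2, SLC7A11 and TRIB3 with positive and CDC20, HJURP and TUBA1A with negative interactions. Of these, 8 were also called in each of the 8 fits that combined the correction with a left-out library: ADM2, ATF4, CEBPG, CHAC1, IL1A, LMO4, TRIB3 and TUBA1A. The last set of fits was chosen after seeing the data.

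In TPC1, the other papillary thyroid carcinoma line, the same difference had the same sign for 39 of the 51 genes. It was called in the same direction for 23 of them (3.33% and 4.54% of 16738 genes were called positive and negative in TPC1). These were 16 of the 24 positive genes and 7 of the 27 negative genes, so most negative genes had no such call in TPC1. Agreement in sign was not counted over all genes. The 51 include DDIT4L, SOX17, WISP1 and HAS2, whose K1 minus TPC1 standard errors ran from 933 to 3040. For these genes TPC1 gave no usable estimate, so agreement between the lines cannot be judged. In the fit without correction, the difference between the lines was itself called for 12 of the 51, beside 1.95% positive and 1.19% negative calls over all genes. For CHAC1 the interaction was 3.31 in TPC1 (K1 minus TPC1 0.02 ± 0.274), for TRIB3 it was 0.79 (0.00 ± 0.186) and for ATF4 0.77 (0.22 ± 0.174), and none of these differences was called. The largest contrast among the mitotic genes was KIF20A, with 1.41 in TPC1 and −1.23 in K1 (difference −2.64 ± 0.289, edgeR, Benjamini-Hochberg adjusted p = 0.00035). The difference was also called for DDIT3 (2.20 in TPC1, 0.90 in K1), for BTG2 (0.61 in TPC1, −0.77 in K1) and for DDIT4 (−0.04 in TPC1, 1.07 in K1).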

How the data were processed

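RNA of TPC1 and K1 cells was sequenced, and the 8 K1 libraries were analysed here, with the TPC1 libraries used for 1 comparison. The values are whole-number read counts per gene as deposited by the authors, with 1 table for all 16 libraries. According to the study's methods and the submitters' processing notes, reads were aligned to GRCh37 (hg19) with TopHat2 2.0.13, duplicates were identified with Picard 1.129, and reads on exons were counted by strand with HTSeq 0.6.1, after alignments of low mapping quality had been removed. Reads shared by near-identical genes are therefore lost or uncertain.

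Genes above 0.1 CPM in at least 2 K1 libraries (15900) were fitted with the quasi-likelihood method of edgeR 4.0.16 in R 4.3.3 on TMM-scaled counts, with 4 group means and 4 residual degrees of freedom. P values were adjusted by Benjamini-Hochberg over all genes tested, and a call needs an adjusted p under 0.05 and a change above 1.5-fold. The study's methods use DESeq2, which is an alternative here (DESeq2 1.42.0). CPM are computed with the TMM factors. GC content and transcript length came from the GRCh37 annotation (23036 of 25369 symbols matched, 98.8% of genes at 5 CPM or more). The correction fitted log2 CPM minus the gene mean on splines of GC content and length (5 degrees of freedom each, MASS 7.3.60.0.1) in each library and entered the trends as offsets. A K1 minus TPC1 difference was tested with all 16 libraries in 1 fit. The main fit did not pair the K1 libraries by replicate number. Differences between replicates 2 and 1 were correlated between groups over 12544 genes. Correlations were positive among the groups given a drug (0.139 to 0.335) and negative between each of these and DMSO (−0.321 to −0.257). Whether the replicate numbers stand for a shared effect cannot be told from these values. The scripts were tested on simulated data.

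The members and gene lists were chosen with earlier results of these data known. Genes named are the 12 largest called interactions each way, 13 fixed genes, up to 3 called members (or the most abundant) of each list, the 5 largest each way called in both fits, and the 3 largest each way of the K1 minus TPC1 difference. Other genes named were chosen after their values were seen, and a few results that the rule names are not reported here. Alternatives were other scalings, filters and DESeq2, a replicate block, the GC corrections and the omission of each library. The columns were mapped by name. In TPC1 the replicate number in the name of some columns did not match a label, and these columns were assigned by group only.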

Additional observations from a re-analysis of the deposited data

Results flagged for a closer look

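The results below were singled out because the interaction in K1 differed from that in TPC1 in a direct test in the fit of all 16 libraries (edgeR quasi-likelihood, called with the same limits). Values are K1 minus TPC1 on the log2 scale, and the number of such calls itself depended on single libraries, as given with the processing. They come from the fit without correction, so the K1 side carries the trend with GC content. With the correction for GC content and length, 413 positive and 233 negative differences were called. In K1 the correction moved SLC38A2 from 0.86 to 0.55 and CXCL8 from 0.74 to 0.31. It moved CSF2 from 0.70 to 0.80 and DDIT4 from 1.07 to 1.24. No explanation was tested for any of these results.

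Among genes of mitosis and division, KIF20A differed by −2.64 (−1.23 in K1, 1.41 in TPC1), FAM83D by −2.24 (1.24 in TPC1), CDCA8 by −1.40 (−1.10 and 0.29) and NEIL3 by −1.16 (−0.72 and 0.44). All 4 were negative in K1 and above 0 in TPC1, where the values of CDCA8 and NEIL3 were not called. They were picked for their difference and do not stand for the mitosis list. Of its 44 genes, 3 had a called difference between the lines, beside 1.95% positive and 1.19% negative calls over all genes. Among p53 targets, BTG2 differed by −1.38 (−0.77 and 0.61) and CDKN1A by −1 (−0.41 and 0.58).

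Of the ISR and amino acid transport genes, DDIT4 (1.10) and SLC38A2 (0.99) had the larger interaction in K1, with −0.04 and −0.12 in TPC1. SLC1A4 (−1.54), DDIT3 (−1.31) and CEBPG (−0.99), as well as the coregulator gene IFRD1 (−0.71) and the chemokine gene CXCL8 (−1.57), which are in neither list, were positive in both lines and larger in TPC1, with 2.36, 2.20, 1.86, 1.47 and 2.31 there.

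CSF2 differed by 1.86 (0.70 in K1, −1.16 in TPC1). TUBA1A (1.21), HSD3B7 (1.34) and PTGES (1.64) were negative in both lines and more so in TPC1 (−2.03, −2.22 and −2.50). CDH6, a cadherin, differed by 2.70, GPRIN3 by 2.71 and the thyroid factor PAX8 by 0.59. These 3 had an interaction between −0.56 and −0.11 in K1 that was not called, and −3.27, −3.16 and −0.70 in TPC1. WNK4, a kinase of ion transport, differed by −2.41 (−0.49 in K1, 1.92 in TPC1).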

How the results depend on the processing

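The median interaction over all genes tested was −0.03, and scaling by library size alone moved it to 0.02. Counts of interactions were 284 positive and 104 negative. They were 292 and 101 with DESeq2 size factors, 404 and 77 with library size alone, which shifts the split towards positive, 297 and 104 with filterByExpr, 358 and 144 with no filter, and 265 and 83 with the Wald test of DESeq2. Correction for GC content and length gave 30 and 32, and for GC content alone 30 and 30. With trends taken only from genes not called against DMSO for either drug or the combination it gave 29 and 32. With the replicate block the counts were 264 and 102, and with the replicate block and the correction 26 and 23. The fit of all 16 libraries called 122 and 51. Leaving out 1 library gave 13 to 584 positive and 7 to 139 negative calls: 13 and 7 without nutlin replicate 2, 35 and 26 without combination replicate 2, 331 and 57 without combination replicate 1, 131 and 109 without GSK2830371 replicate 1, 584 and 108 without GSK2830371 replicate 2, 450 and 139 without nutlin replicate 1, and 242 and 63 without DMSO replicate 2. With the correction as well, added after seeing the data, the counts were 25 and 24 without DMSO replicate 1, 12 and 7 without DMSO replicate 2, 16 and 3 without combination replicate 1, 10 and 7 without combination replicate 2, 24 and 36 without GSK2830371 replicate 1, 33 and 15 without GSK2830371 replicate 2, 66 and 80 without nutlin replicate 1, and 10 and 5 without nutlin replicate 2. For GSK2830371 without nutlin (117 up, 238 down), DESeq2 called 58 up, the correction 57 and 56, and correction for GC alone 58 and 56. The correction with trends from genes not called against DMSO gave 59 and 55, and the replicate block with the correction 52 and 55. Leaving out 1 library gave 93 (GSK2830371 replicate 1) to 518 (replicate 2) down. For GSK2830371 with nutlin (184 up, 242 down), DESeq2 called 108 up, and leaving out 1 library gave 87 to 195 up and 140 to 252 down, in both directions lowest without nutlin replicate 2. For K1 minus TPC1 (326 and 199), library size alone gave 612 positive, no filter 744 and 380, DESeq2 306 negative, and the replicate block 208 positive, and leaving out 1 library gave 73 to 722 positive and 71 to 397 negative, lowest without K1 combination replicate 2 and highest without TPC1 DMSO replicate 1. It was also under 100 positive without K1 DMSO replicate 1 (75), K1 GSK2830371 replicate 1 (80) or the TPC1 nutlin column numbered 3 (78). Among values of named genes under an alternative, 564 lost their call, 3 gained one and 2052 kept their side. The replicate block changed no other count by more than 1.5 times. No named gene with a called interaction changed sign, whereas some without a call did, such as HMOX1 (0.09, lowest −0.22), EIF2AK1 (−0.02, up to 0.07), PAX8 (−0.11, up to 0.08) and MDM2 (0.27, lowest −0.05). The corrections also ended the excess of positive over negative interactions and of decreases over increases by GSK2830371 without nutlin. The causes of these shifts were not tested, except that fits with fewer libraries have fewer residual degrees of freedom by construction. With 2 libraries a group, 4 residual degrees of freedom limit which changes can be called, and at this depth genes near 0.1 CPM hold few reads.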

Other observations

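The sign of an interaction is relative to the sum of the single drugs and not to DMSO. Among the 269 positive genes at 5 CPM or more, 174 were higher in the combination than in DMSO and 95 were not, and among the 98 negative genes 80 were lower and 18 were not. Of the 51 genes called in both fits, 22 of 24 positive genes were higher than DMSO and 26 of 27 negative genes were lower. These are counts of point estimates. The medians of the 24 positive genes were −0.48 for nutlin alone and 0.54 for the combination, and those of the 27 negative genes were −0.88 and −2.06.

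Separation of the libraries followed the lists in part. Of the 13 ISR members at 5 CPM or more, 11 had both combination libraries above all 6 others (84.6%), beside 4 of 11 amino acid transporters (36.4%) and 6 of 16 synthesis genes (37.5%). Over all 10859 genes this held for 16.8%. Of the 44 mitosis genes, 44 had both combination libraries below all others, beside 20.5% over all genes. Lists with a median interaction near 0 separated as well. Both combination libraries were highest for 61.5% of p53 targets for arrest and feedback, 75% of those for apoptosis and 45% of ER chaperones. They were lowest for 71.1% of replication genes. Single drug effects that only add up can give such separation, so it does not measure the interaction.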
